A study of Mus musculus with 22 samples.

Results

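Zscan4a, Zscan4b, Zscan4c, Zscan4d, Zscan4e and Zscan4f, the Zscan4 family, were followed in the mouse from the growing oocyte to the 8-cell embryo, in Setd2 knockouts and their controls. The members were taken by symbol, 6 of the 22592 gene symbols in the deposited expression tables, and all 6 were listed for each of the 22 RNA-seq libraries. Libraries were made by Smart-seq2, a full-length method for few cells, and expression was given in FPKM, fragments scaled to transcript length and to the mapped fragments of a library, so that levels can be compared between genes per length. Setd2 encodes a histone methyltransferase that places the trimethyl mark on lysine 36 of histone H3.

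Each stage had a Setd2 knockout (KO) and a control (Con) with 2 libraries each. Growing oocytes came from females at postnatal day 7 and were labelled Setd2-/- and Setd2+/-. Full-grown oocytes (FGO) were germinal vesicle oocytes from 8-week-old females collected 48 h after PMSG, the hormone that makes follicles grow, and were labelled Setd2_KO and Setd2_Con. Zygotes of both genotypes were collected 30 h after hCG, which triggers ovulation. The females were 8 weeks old for the zygotes, 48 h embryos, spindle-exchange embryos and Dnmt3l oocytes as well. At 48 h the knockout embryos were titled 1-cell and the control embryos 2-cell, so genotype and cell stage cannot be told apart at that time. The 48 h comes from the sample titles, and the labels used here do not give its starting point. The last Setd2 pair was 8-cell embryos grown from oocytes whose spindle had been exchanged between Setd2mNull and control oocytes before sperm injection. They were labelled Setd2-/- and Setd2+/-, and the labels do not say which partner gave the spindle to a given library. A further pair of full-grown oocytes, 1 library each, was a Dnmt3l knockout and its control, Dnmt3l being a cofactor of DNA methylation in growing oocytes. The labels do not name the Cre driver or say whether replicates came from separate animals, so p-values measure the spread between libraries, which may be technical.

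Zscan4 proteins carry a SCAN domain, through which such proteins associate, and zinc fingers that bind DNA. In the mouse the genes are known for a short burst of transcription in the 2-cell embryo, when the embryonic genome is switched on, and for flickering expression in a few cells of embryonic stem cell cultures, where Zscan4 has been linked to telomere lengthening. Zscan4d is known as the main form of the 2-cell embryo and Zscan4c as the main form of embryonic stem cells, and the transcription factor Dux and the paired proteins Dppa2 and Dppa4 are known as activators upstream.

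The genes lie side by side on chromosome 7 in the order Zscan4a, Zscan4b, Zscan4c, Zscan4d, Zscan4e and Zscan4f, with the pseudogene Zscan4-ps1 between Zscan4c and Zscan4d. RefSeq lists Zscan4b, Zscan4c, Zscan4d and Zscan4f as protein coding, Zscan4a as a transcribed pseudogene and Zscan4e as a pseudogene. They are near copies, which bears on every value below. Of all stretches of 50 bases in its longest transcript, Zscan4d shared 47.9% with at least 1 of the other 5 members, Zscan4a 59.5%, Zscan4c 75.9%, Zscan4f 87.6%, Zscan4b 88.7% and Zscan4e 91.6%. Zscan4d is therefore the member that shares least with the other 5 at this length, and Zscan4e and Zscan4b share most. Counted against all other Zscan4 transcripts, those outside the 6 included, the order changes. Zscan4f then shared 95.3%, Zscan4e 91.6%, Zscan4b 90.3%, Zscan4c 85.5%, Zscan4a 63.6% and Zscan4d 49.6%.

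Upstream sequence is shown for the 4 protein-coding members, the ones matched in RefSeq (GRCm38.p6, the source of all sequences and their positions here, whereas the expression tables name the build mm9), because the members moved together across the libraries. The 250 bases before the annotated start of Zscan4d, chr7:11166149-11166398 on the minus strand, are given 5′ to 3′ with matches to TGATTCAA and TATAAAA in capitals.
Zscan4d upstream: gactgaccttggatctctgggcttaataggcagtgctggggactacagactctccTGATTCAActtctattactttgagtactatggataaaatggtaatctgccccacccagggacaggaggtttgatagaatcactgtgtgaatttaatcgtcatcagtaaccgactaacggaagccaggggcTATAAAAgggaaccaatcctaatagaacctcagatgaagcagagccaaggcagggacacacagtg
Searched on both strands of the 250 bases before the start, TATAAAA was present in 4 of 4 members and in 4.98% of 32851 RefSeq promoters. TGATTCAA, the first letters of a form of the site known for mouse Dux, was present in 3 of 4, Zscan4c, Zscan4d and Zscan4f, and in 0.539% of all promoters. Both motifs were picked after these sequences had been seen. The stretch of 48 bases around TGATTCAA is aligned below, with capitals where a member differs from Zscan4d.
Zscan4b, chr7:10905172-10905219, minus strand: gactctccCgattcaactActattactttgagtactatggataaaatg
Zscan4c, chr7:11005553-11005600, plus strand: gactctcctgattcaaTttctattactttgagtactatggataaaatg
Zscan4d, chr7:11166304-11166351, minus strand: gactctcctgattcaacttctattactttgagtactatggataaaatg
Zscan4f, chr7:11397746-11397793, plus strand: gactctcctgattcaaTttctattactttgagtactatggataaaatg
Zscan4b differed from Zscan4d at 2 of the 48 bases, and its first difference falls in the TGATTCAA match. Zscan4c and Zscan4f were identical to each other in this stretch and differed from Zscan4d at 1 base. Over the aligned upstream sequence, pairs of members were 94.7% (Zscan4b and Zscan4c) to 99.6% (Zscan4c and Zscan4f) identical.

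The libraries bore out most of their labels. Setd2 stood at 0.927 to 1.74 FPKM in the knockout full-grown oocytes, zygotes and 48 h embryos, against 4.35 to 53.2 FPKM in their controls. It was closer between genotypes in growing oocytes (3.67 and 3.21 FPKM in KO, 4.33 and 6.68 FPKM in Con) and did not separate them in the spindle-exchange embryos (15.4 and 18.1 FPKM in KO, 18.2 and 17.1 FPKM in Con). Oocyte transcripts, 11 genes such as Zp3 and Gdf9, summed to 10248 to 10743 FPKM in the 48 h knockout embryos and to 260 to 289 FPKM in the 48 h controls. Granulosa and cumulus markers, 10 genes, summed to 21.7 to 24.0 FPKM in the 48 h knockouts and 0.506 to 0.930 FPKM in the 48 h controls, and to at most 40.3 FPKM in the Setd2 full-grown oocytes and zygotes. The sum in the 48 h knockouts was mostly Cyp19a1 (15.1 and 10.6 FPKM), Fshr (4.21 and 10.8 FPKM) and Kitl (2.06 and 1.87 FPKM). All other markers of the list stayed under 1 FPKM there. Cyp19a1 alone had 13.1 to 23.4 FPKM in the Setd2 full-grown oocytes and zygotes of both genotypes. Depth, estimated from the smallest steps between FPKM values, was about 9.33 to 22.4 M (mega) fragments in the Setd2 full-grown oocytes, 3.09 to 3.43 M fragments in zygotes and 3.31 to 4.84 M fragments at 48 h.

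In controls the summed level of the family was low in full-grown oocytes, lower in zygotes and high at 48 h. Zscan4d, the most abundant member before cleavage, had 7.76 and 3.89 FPKM in control full-grown oocytes, 1.62 and 2.25 FPKM in control zygotes, and 16.6 and 13.2 FPKM in control embryos at 48 h. Zscan4f had 2.27 and 0.718 FPKM in control oocytes and 0.872 and 1.08 FPKM in control zygotes, which overlap, and 18.9 and 14.3 FPKM in controls at 48 h. For both genes the 48 h controls lay above all oocyte and zygote controls.
Zscan4c had 1.51 and 0.847 FPKM in control oocytes, 0.750 and 0.860 FPKM in zygotes, and 13.1 and 9.72 FPKM at 48 h. Zscan4a went with them at 48 h, at 9.04 and 8.41 FPKM, although it had only 0.485 and 0.246 FPKM in oocytes and 0.158 and 0.123 FPKM in zygotes. A single fragment is worth about 0.145 to 0.160 FPKM at the length of these transcripts in zygotes, so the zygote values of Zscan4a, Zscan4b and Zscan4e stand for only a few fragments each, and in control zygotes for about 1 or fewer.
Zscan4e reached 2.84 and 2.38 FPKM in control embryos at 48 h and Zscan4b 1.35 and 1.91 FPKM. The order at that time, Zscan4f, Zscan4d, Zscan4c, Zscan4a, Zscan4e and Zscan4b, was the same in both control libraries, with means of 16.6 ± 3.26, 14.9 ± 2.42, 11.4 ± 2.41, 8.72 ± 0.450, 2.61 ± 0.326 and 1.63 ± 0.402 FPKM (SD, n = 2 each). Zscan4f and Zscan4d overlapped between libraries, the highest Zscan4c library (13.1 FPKM) nearly met the lowest of Zscan4d (13.2 FPKM), and the other neighbours in this order did not overlap.

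**Figure D1:**
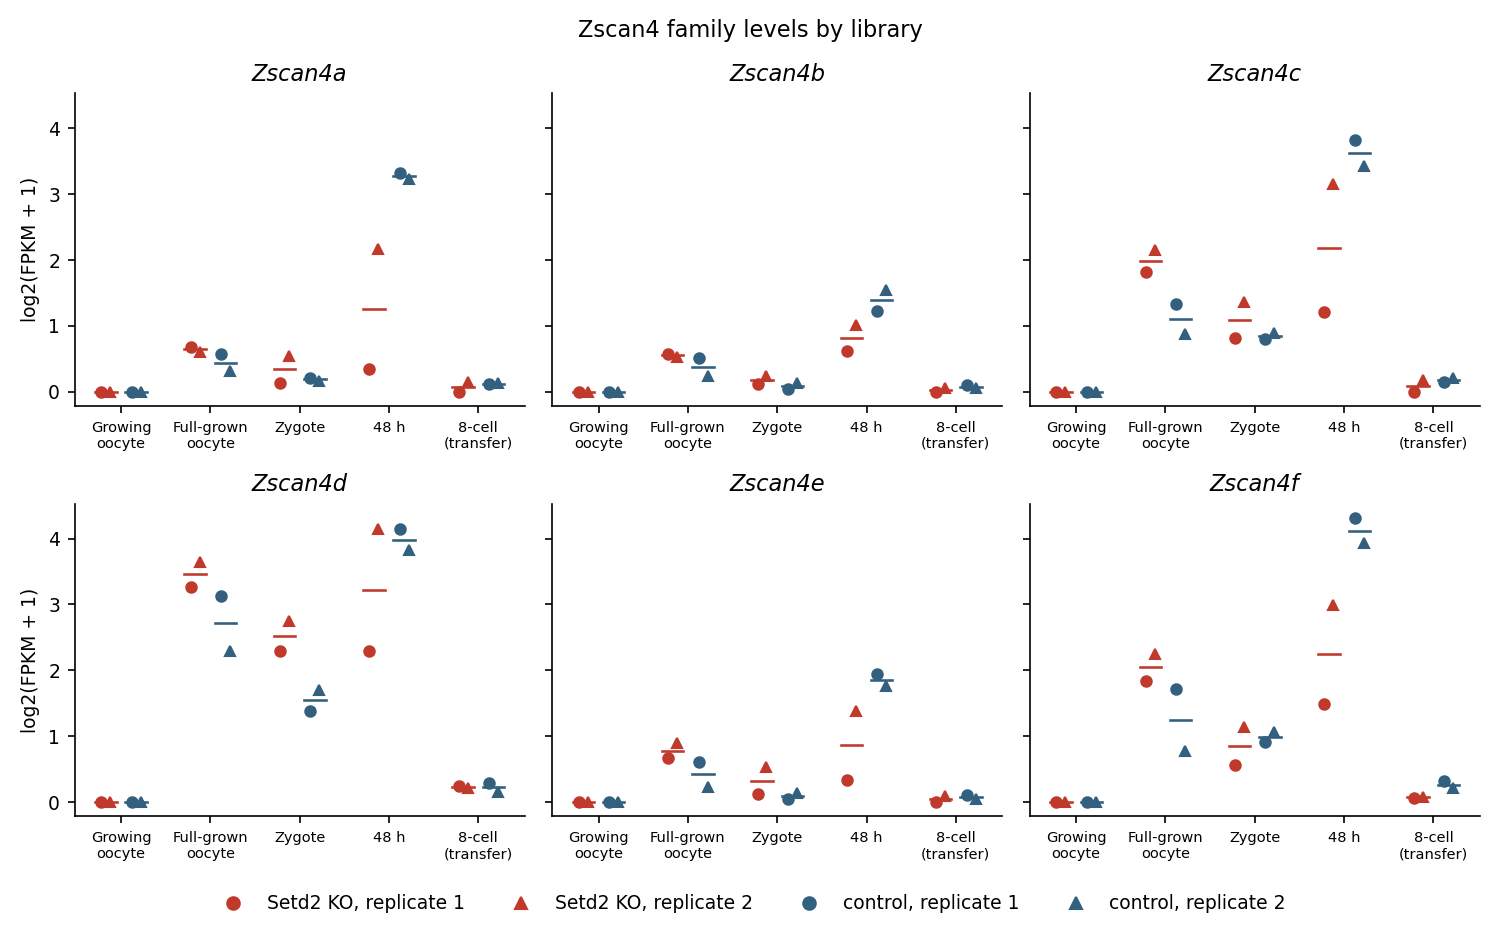
Level of each Zscan4 member as log2(FPKM + 1) (vertical axis) in each Setd2 library by stage (horizontal axis), with red for knockout, blue for control, circles for replicate 1, triangles for replicate 2 and a bar for the mean of 2 libraries. At 48 h the control libraries of all 6 members are the highest blue points, and knockout replicate 1 lies below knockout replicate 2 for each member; growing oocytes and 8-cell embryos, which come from tables scaled separately, stay at or near 0.

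From the zygote to 48 h all 6 members rose in controls by the test across all genes, where 33.4% of the 12199 genes tested were called higher. Both 48 h libraries lay above both zygote libraries for all 6, as they did for 37.8% of all genes. Zscan4a, Zscan4b and Zscan4e reached 1 FPKM in no oocyte or zygote library of this table and entered the test only through the 48 h libraries, so their calls describe genes that had to be high there, and the count of 6 is not read against the share. The test was limma on log2(FPKM + 1) with Benjamini-Hochberg adjustment over all genes, called at 0.05. Changes are given relative to the median of all genes tested, which was -0.34 for this step and 0.43 for the 48 h comparison of genotypes, and p-values belong to the unshifted change. The rise was 3.48 for Zscan4f (SE 0.468), 3.43 for Zscan4a (SE 0.441), 3.11 for Zscan4c (SE 0.502), 2.78 for Zscan4d (SE 0.509), 2.10 for Zscan4e (SE 0.305) and 1.63 for Zscan4b (SE 0.194), with limma adjusted p between 6.13e-05 and 0.00104. As ratios of means, Zscan4f was 16.9 times, Zscan4c 14.2 times and Zscan4d 7.70 times its zygote level.

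At 48 h, 5 of the 6 members were lower in knockout 1-cell embryos than in control 2-cell embryos, beside 30.6% of all genes called lower and 73.8% called in either direction in the same comparison. Zscan4a, Zscan4b and Zscan4e are again among them and passed the filter through the 48 h libraries, where the 2 controls alone were enough, so the count is a description. Zscan4a, the transcribed pseudogene, had 0.265 and 3.50 FPKM in KO, against 9.04 and 8.41 FPKM in Con. Both knockout libraries lay below both controls, and the relative change was -2.46 on the log2 scale (95% interval -3.43 to -1.49, limma adjusted p = 0.00154).
Zscan4f had 1.79 and 6.99 FPKM in KO, against 18.9 and 14.3 FPKM in Con, again without overlap. Its change was -2.31 (interval -3.34 to -1.28, limma adjusted p = 0.00362).
Zscan4c, known as the main form of stem cells, had 1.31 and 7.91 FPKM in KO, against 13.1 and 9.72 FPKM in Con. Its groups did not overlap, but the higher knockout library came near the lower control, and the change was -1.87 (interval -2.98 to -0.76, limma adjusted p = 0.0225).
Zscan4e had 0.265 and 1.61 FPKM in KO against 2.84 and 2.38 FPKM in Con, and Zscan4b had 0.543 and 1.03 FPKM in KO against 1.35 and 1.91 FPKM in Con. Neither pair of groups overlapped, and the changes were -1.42 (limma adjusted p = 0.0122) and -0.996 (limma adjusted p = 0.0211).
Zscan4d, known from other work as the main 2-cell form but below Zscan4f in both control libraries here, did not pass. It had 3.88 and 16.7 FPKM in KO and 16.6 and 13.2 FPKM in Con, so that knockout replicate 2 stood level with the highest control, and the change was -1.20 relative to the median (interval -2.32 to -0.08). The unshifted change that the test uses was -0.76 (interval -1.88 to 0.36, unadjusted p = 0.161, limma adjusted p = 0.192). Of the 6 members, 5 had both knockout libraries below both controls, which held for 35.9% of all genes.

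These calls depend on the libraries and the settings. Zscan4a and Zscan4f passed in all 12 alternatives tried, with limma adjusted p of 3.85e-06 to 0.0373 and 0.000323 to 0.0385. Without knockout replicate 1, or without control replicate 1, only those 2 passed, and the same 2 were left when the fit used the 48 h libraries alone. Without knockout replicate 2 all 6 passed, Zscan4d included, with a change of -2.05 (limma adjusted p = 0.00378). The members share reads, so 5 calls are not 5 separate measurements. Oocyte transcripts, given above, were far higher in the same knockout libraries, and their part in these differences was not tested. In libraries of whole embryos, fewer cells that transcribe a gene and less RNA per cell cannot be told apart.

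**Figure D2:**
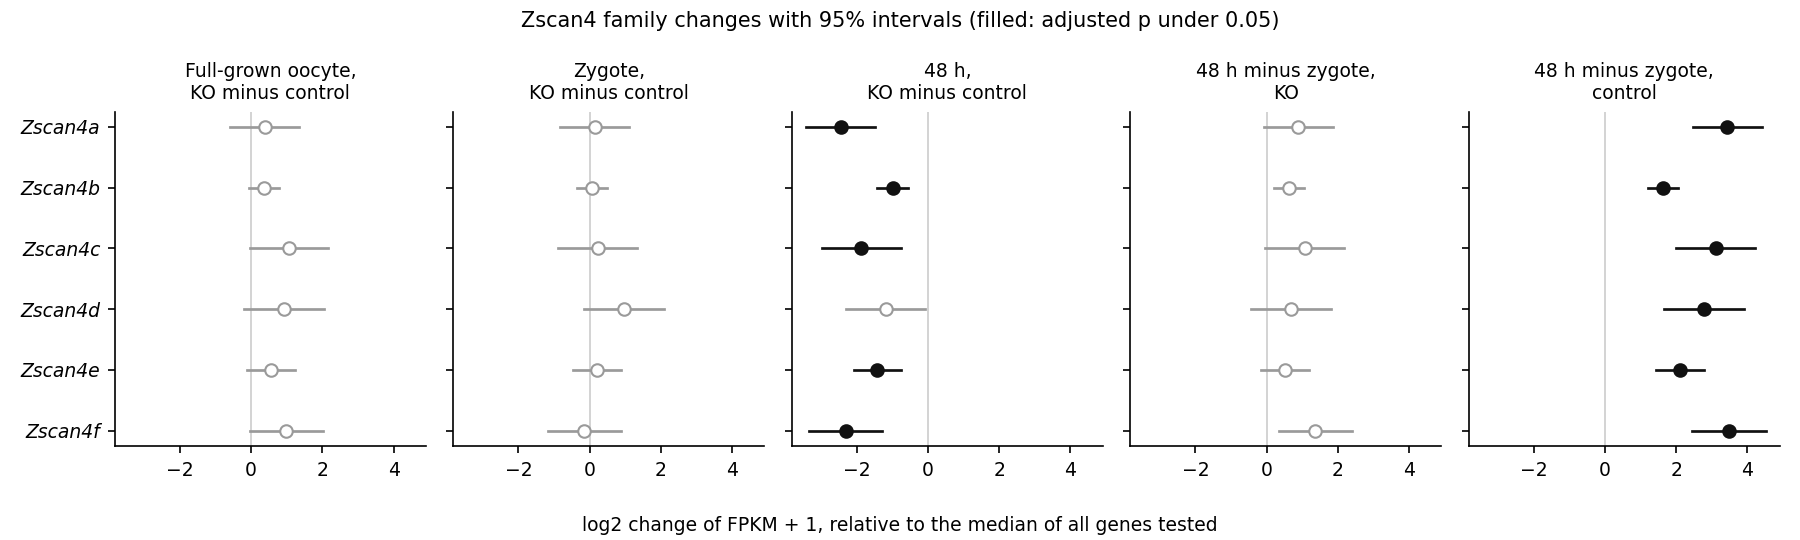
Log2 change of FPKM + 1 of each Zscan4 member relative to the median of all genes tested (horizontal axis) in 5 comparisons, with unadjusted 95% intervals from limma shifted by the same median; filled points have an adjusted p under 0.05. All 6 points are filled in the control step from zygote to 48 h, 5 in the 48 h comparison of knockout with control, and none in the other 3 comparisons.

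The knockout libraries at 48 h stood apart from each other in this family. Summed over the 6 members, knockout replicate 1 had 8.06 FPKM and knockout replicate 2 had 37.8 FPKM, against 61.9 and 49.9 FPKM in the controls. Replicate 2 was thus 4.69 times replicate 1, while in the other 5 groups of the same table the ratio of replicate 2 to replicate 1 lay between 0.467 and 1.76. All 6 members were higher in replicate 2, by a median of 1.67 on the log2(FPKM + 1) scale, and 5 of the 6 by more than 1. Across all genes tested, 55.1% were higher in replicate 2, the median difference was 0.06 and 5.66% exceeded 1. The gap was not found in this family alone. Of 19 tested genes of a 2-cell list, taken up below, 15 (78.9%) were higher in replicate 2. For 6 of the 19 (31.6%) the difference exceeded 1, and their median difference over the 19 was 0.24. The 2 libraries were alike in depth, about 4.73 and 4.84 M fragments, and in Setd2, at 1.42 and 1.74 FPKM.
The difference was graded among the members. Zscan4c was 6.02 times as high in replicate 2, Zscan4d 4.31 times, Zscan4f 3.90 times and Zscan4b 1.89 times. No ratio is given for Zscan4a and Zscan4e, whose 0.265 FPKM each in replicate 1 stands for about 3 fragments or fewer. Set against the control mean, replicate 1 held between 3.03% (Zscan4a) and 33.3% (Zscan4b) of each member, and replicate 2 between 40.1% (Zscan4a) and 112% (Zscan4d).
From a list of 2-cell genes, transcripts known from the same stage, those that rose in controls stood at smaller shares by the median. The median over the 6 Zscan4 members was 11.2% of the control mean in knockout replicate 1 and 62.2% in knockout replicate 2, and over the 15 tested 2-cell genes that rose in controls between zygote and 48 h it was 0.549% in replicate 1 and 3.53% in replicate 2. The range of these 15 genes in replicate 2 was 0% to 66.9%, the highest being Tdpoz3, a low-level gene with 0 and 1.48 FPKM in KO and 3.09 and 1.32 FPKM in Con. Zfp352, another gene of the 2-cell stage, had 0.188 and 4.31 FPKM in KO against 65.4 and 50.8 FPKM in Con, and Rfpl4b was listed at 0 in both knockouts against 55.5 and 40.9 FPKM in Con. The 15 genes were picked by a rise into the same 48 h controls that the shares are taken from, so small shares are favoured. The 4 other tested genes of the list fell in controls over that step. Their shares ran from 63.0% and 74.9% (Sp110) to 1011% and 1058% (Arg2) in knockout replicates 1 and 2. These shares are descriptions of 2 libraries, and no test compares the lists. The summed Zscan4 level was already 15.5 and 20.5 FPKM in knockout full-grown oocytes and 5.43 and 9.56 FPKM in knockout zygotes. Some of the 2-cell genes, such as Zfp352, Rfpl4b and Tdpoz4, were under 1 FPKM in those libraries, and others, such as Zscan5b, were above it. The part of earlier RNA in the shares of either list was not tested. Of the sperm markers, Prm2 had 3.77 and 18.4 FPKM in KO and 1.35 and 0 FPKM in Con, Tnp1 was listed at 0 in both KO libraries and had 2.47 and 5.29 FPKM in Con, and Tnp2 had 0.556 and 0.543 FPKM in KO and 0 and 2.72 FPKM in Con. Prm1 and Smcp were listed at 0 in all 4 libraries, and the 5 summed to 4.33 and 19.0 FPKM in KO and 3.83 to 8.02 FPKM in Con. Prm2 was also listed in the Setd2 full-grown oocytes, which had not been fertilised, at 9.55 and 14.8 FPKM in KO and 14.3 and 17.5 FPKM in Con. Its 48 h values therefore need not stand for sperm RNA. The part of the sperm markers in the result was not tested.

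**Figure D3:**
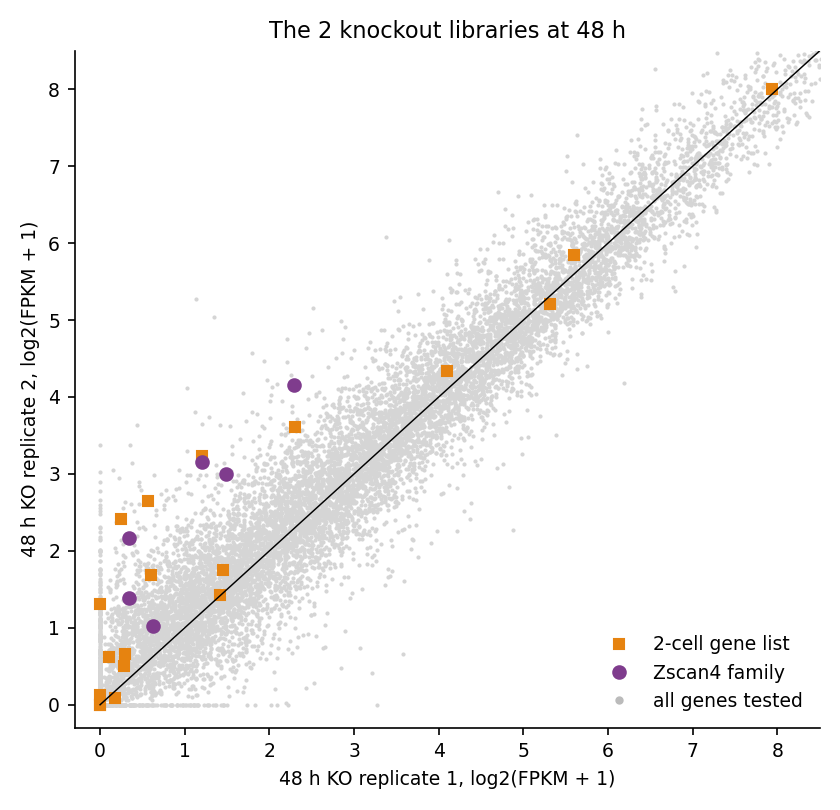
Level of each tested gene as log2(FPKM + 1) in 48 h knockout replicate 2 (vertical axis) and replicate 1 (horizontal axis), with the Zscan4 members in purple, the 2-cell gene list in orange, all other genes in grey and a line where both are equal; genes beyond the axes are not drawn. All 6 purple points lie above the line, 5 of them by more than 1 unit.

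Within the knockout, no member passed between zygote and 48 h, and only 0.205% of all genes did (25 genes, with 1240 at an unadjusted p under 0.05). The member values were nonetheless above those of zygotes in most libraries. Zscan4f had 1.79 and 6.99 FPKM in knockout embryos at 48 h, against 0.477 and 1.20 FPKM in knockout zygotes, and its relative change was 1.37 (interval 0.34 to 2.40 before adjustment, limma adjusted p = 0.349). Zscan4d had 3.88 and 16.7 FPKM at 48 h, against 3.92 and 5.69 FPKM in zygotes, so that 1 knockout library at 48 h stood level with a knockout zygote and the other was above both. Zscan4b, at 0.543 and 1.03 FPKM in knockouts at 48 h and 0.0856 and 0.177 FPKM in knockout zygotes, and Zscan4f were the 2 members without overlap, a pattern that 16.2% of all genes showed. Zscan4b entered the test only through the 48 h libraries, so the count of 2 is a description and is not read against the share.
The difference between the steps was tested directly, as the change in knockout minus the change in control. It was lower for 3 members, beside 29.5% of all genes: Zscan4a at -2.54 (limma adjusted p = 0.00958), Zscan4e at -1.58 (limma adjusted p = 0.0268) and Zscan4f at -2.11 (limma adjusted p = 0.0361). Zscan4a and Zscan4e entered the test only through the 48 h libraries, so the count of 3 is a description and is not read against the share. Zscan4d (-2.10), Zscan4c (-2.04) and Zscan4b (-1.01) had limma adjusted p of 0.0513, 0.0561 and 0.0563. Leaving out 1 library changed this count to between 1 and 6: all 6 passed without knockout 48 h replicate 2. Zscan4a alone passed without control zygote 1, control zygote 2, knockout zygote 2, control 48 h replicate 1 or knockout 48 h replicate 1.

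In full-grown oocytes the values pointed the other way. All 6 members were higher in both knockout libraries than in both controls, a pattern that 18.8% of all genes showed, and none passed the test, for which 2.02% of genes were called higher and 6.92% in either direction. Zscan4d had 8.66 and 11.5 FPKM in KO, against 7.76 and 3.89 FPKM in Con. Zscan4c had 2.52 and 3.46 FPKM in KO, against 1.51 and 0.847 FPKM in Con, and Zscan4f had 2.59 and 3.75 FPKM in KO, against 2.27 and 0.718 FPKM in Con. The gap was narrow against control replicate 1 and wide against control replicate 2, which was low in every member.
The relative changes were 1.07 for Zscan4c (interval -0.04 to 2.17, limma adjusted p = 0.313), 0.99 for Zscan4f (interval -0.04 to 2.02, limma adjusted p = 0.323) and 0.93 for Zscan4d (interval -0.19 to 2.05, limma adjusted p = 0.401). Zscan4a had 0.605 and 0.519 FPKM in KO against 0.485 and 0.246 FPKM in Con, Zscan4b 0.493 and 0.445 FPKM in KO against 0.430 and 0.186 FPKM in Con, and Zscan4e 0.582 and 0.871 FPKM in KO against 0.526 and 0.171 FPKM in Con. These 3 stayed under 1 FPKM in the 8 Setd2 full-grown oocyte and zygote libraries and entered the test only through the 48 h libraries.
A comparison added after these values had been seen took the knockout effect at 48 h minus the knockout effect in oocytes. The difference was lower for 5 members, beside 23.7% of all genes, and the 5 include Zscan4a, Zscan4b and Zscan4e. It was -3.31 for Zscan4f (limma adjusted p = 0.00438), -2.94 for Zscan4c, -2.85 for Zscan4a, -1.98 for Zscan4e and -1.36 for Zscan4b (limma adjusted p = 0.0347), and -2.13 for Zscan4d (limma adjusted p = 0.0863). Leaving out 1 library gave 2 to 6 such members. Granulosa and cumulus markers in the oocyte libraries summed to 29.8 to 34.5 FPKM in KO and 36.8 to 40.3 FPKM in Con, and single markers went both ways. Of the 6 tested, Fshr was higher in KO (9.49 and 8.25 FPKM in KO, 0.415 and 0.180 FPKM in Con, limma adjusted p = 0.00171), and Inha (0.816 and 0.519 FPKM in KO, 14.8 and 15.1 FPKM in Con), Cyp11a1 (0.293 and 0.323 FPKM in KO, 3.20 and 2.37 FPKM in Con) and Hsd3b1 (0 in both KO, 4.95 and 4.03 FPKM in Con) were lower. The remaining 2 of the 6 did not pass, Cyp19a1 (23.4 and 19.6 FPKM in KO, 15.4 and 13.6 FPKM in Con) and Kitl (0.502 and 0.713 FPKM in KO, 0.355 and 0.533 FPKM in Con). Amh and Foxl2 were at 0 in both KO libraries and near 0 in Con (0.0280 and 0.0670 FPKM for Amh, 0.0527 and 0.0419 FPKM for Foxl2). The part of these markers in the oocyte values was not tested.

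In zygotes only Zscan4d separated the genotypes, with 3.92 and 5.69 FPKM in KO, against 1.62 and 2.25 FPKM in Con. The change was 0.96 (interval -0.16 to 2.08, limma adjusted p = 0.168), and it did not pass where 31.6% of all genes did, a share that fell to 0 genes when the zygotes were fitted alone; 32.7% of all genes had both knockout libraries above both controls. Zscan4c had 0.758 and 1.58 FPKM in KO against 0.750 and 0.860 FPKM in Con, and Zscan4f had 0.477 and 1.20 FPKM in KO against 0.872 and 1.08 FPKM in Con. Both overlapped. Zscan4a had 0.0970 and 0.465 FPKM in KO against 0.158 and 0.123 FPKM in Con, Zscan4b 0.0856 and 0.177 FPKM in KO against 0.0338 and 0.0999 FPKM in Con, and Zscan4e 0.0861 and 0.444 FPKM in KO against 0.0340 and 0.101 FPKM in Con, levels of a few fragments at most.

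The make-up of the Zscan4 signal varied between stages. Zscan4d made up 56.0% and 55.9% of the summed FPKM in knockout oocytes and 59.8% and 64.2% in control oocytes. In zygotes it made up 72.3% and 59.6% in KO and 46.7% and 49.8% in Con, and at 48 h 48.2% and 44.3% in KO and 26.9% and 26.4% in Con. At 48 h the knockout libraries, which differed 4.69 times in total, were thus close to each other in their Zscan4d share and apart from both controls.
Zscan4f made up 22.2% and 18.5% of the sum in the 48 h knockouts and 30.5% and 28.6% in their controls, and Zscan4a 3.28% and 9.26% in the knockouts and 14.6% and 16.9% in the controls. With 2 libraries against 2, an exact permutation test cannot give a two-sided p below 0.33, so these shares are given without one.
Shares between members rest on how the authors' software divided shared reads. Zscan4e and Zscan4b, the members that share most with the other 5, were listed at 1 fixed ratio, 1.0058 to within the digits given, in 5 of the 17 libraries where both were above 0. These were knockout zygote 1, both control zygotes and both control 8-cell embryos, all with few fragments, and in the other libraries the ratio of Zscan4e to Zscan4b lay between 0.488 and 2.51. In those 5 libraries the values of the pair are not separate measurements.

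**Figure D4:**
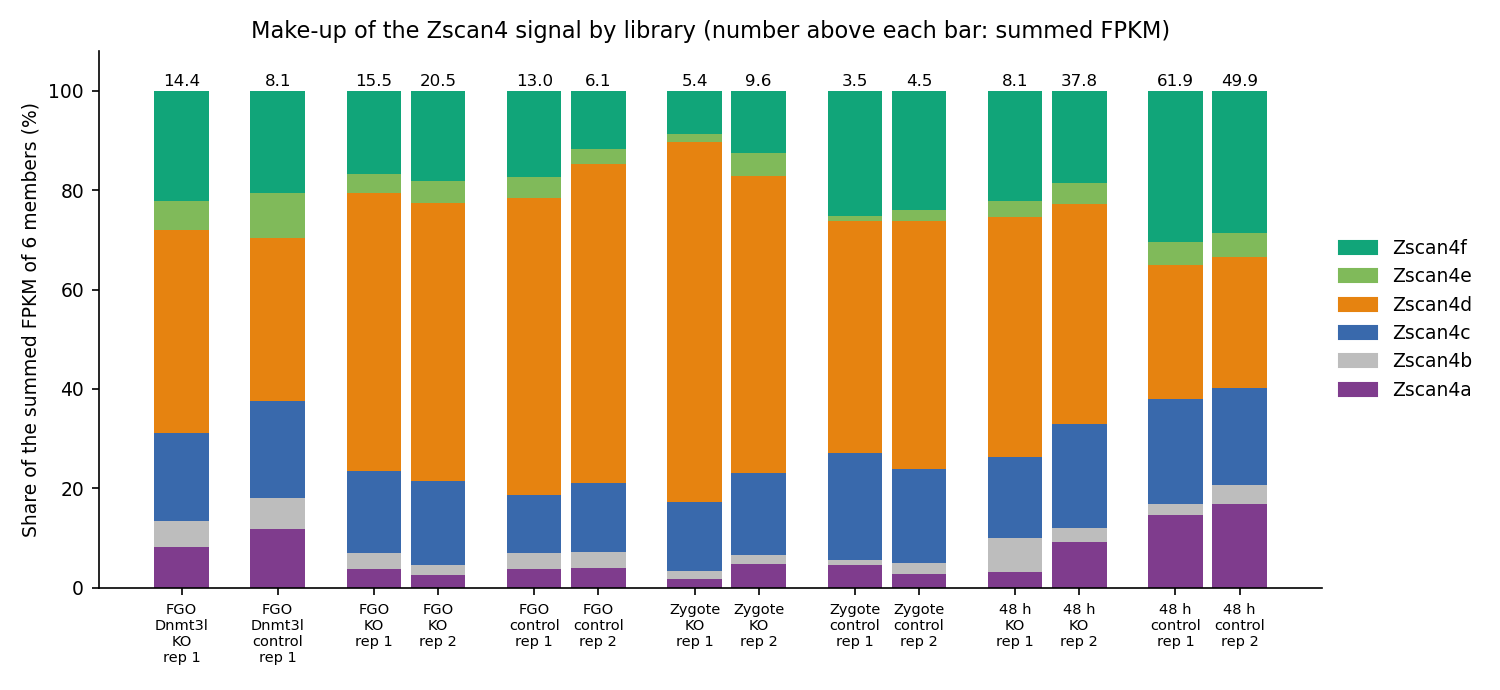
Share of the summed FPKM of the 6 Zscan4 members held by each member (vertical axis, percent) in each library with signal above a few fragments (horizontal axis), knockout left of control, with the summed FPKM above each bar. The orange Zscan4d segment fills 44.3% to 72.3% of every bar of the Setd2 knockout and 26.4% to 26.9% of the control bars at 48 h. In the Setd2 controls of earlier stages it fills 59.8% and 64.2% (oocytes) and 46.7% and 49.8% (zygotes), within the knockout range.

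The Dnmt3l pair gave a separate view of the full-grown oocyte, with 1 library each and hence no replicate check. Zscan4d had 5.88 FPKM in the Dnmt3l KO and 2.66 FPKM in its control. Zscan4f had 3.18 FPKM in KO and 1.67 FPKM in Con, and Zscan4c 2.52 FPKM in KO and 1.57 FPKM in Con. Zscan4a had 1.19 FPKM in KO and 0.960 FPKM in Con, Zscan4e 0.840 FPKM in KO and 0.727 FPKM in Con, and Zscan4b 0.752 FPKM in KO and 0.506 FPKM in Con. All 6 values were higher in the knockout library, and the sum was 14.4 FPKM in KO and 8.10 FPKM in Con. The Dnmt3l KO sum lay just below both Setd2 knockout oocytes (15.5 and 20.5 FPKM), and its control lay between the Setd2 controls (13.0 and 6.06 FPKM). The Zscan4d share was lower than in any of those, 40.9% in the Dnmt3l KO and 32.8% in its control. Dnmt3l transcript was present in both, at 25.0 FPKM in KO and 31.7 FPKM in Con, and granulosa and cumulus markers summed to 26.0 FPKM in KO and 80.7 FPKM in Con, whose part in the difference was not tested.

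At the ends of the series the family was listed at or near 0. In growing oocytes at postnatal day 7 all 6 members were listed at 0 in all 4 libraries, at depths of about 5.37 to 6.10 M fragments. In spindle-exchange 8-cell embryos the summed level was 0.226 and 0.561 FPKM in KO and 0.808 and 0.602 FPKM in Con. Zscan4d had 0.185 and 0.165 FPKM in KO against 0.221 and 0.116 FPKM in Con, and Zscan4f 0.0408 and 0.0591 FPKM in KO against 0.243 and 0.161 FPKM in Con. A single fragment is worth about 0.0645 to 0.0813 FPKM there. The Zscan4f groups did not overlap, but the gap rests on at most 4 fragments a library and was not tested. Zscan4a, Zscan4b, Zscan4c and Zscan4e were listed at 0 in KO replicate 1 and lay between 0.0356 and 0.160 FPKM in the other 3 libraries. No member entered the test in either stage. In the control series, summed levels thus ran 0 FPKM in growing oocytes, 6.06 to 13.0 FPKM in full-grown oocytes, 3.47 to 4.52 FPKM in zygotes, 49.9 to 61.9 FPKM at 48 h and 0.602 to 0.808 FPKM in 8-cell embryos, with no overlap between neighbouring stages, although growing oocytes and 8-cell embryos were scaled in tables of their own.

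The genes reported upstream of Zscan4 were examined as a list of 17 activators and repressors. In knockout embryos at 48 h 4 were higher and 8 lower than in controls, where 43.2% of all genes were higher and 30.6% lower. Dppa4, the DNA-binding partner of Dppa2, had 6.24 and 2.98 FPKM in KO, against 556 and 576 FPKM in Con (change -7.15, limma adjusted p = 9.69e-09). Dppa2 had 26.5 and 85.7 FPKM in KO, against 293 and 288 FPKM in Con (change -3.01, limma adjusted p = 0.000233). In knockout replicate 2, the library with more Zscan4, 11 of the 17 listed regulators were higher than in replicate 1, beside 55.1% of all genes; Dppa2 was among them and Dppa4 was not.
Dux ran on another course. It had 0.530 and 1.55 FPKM in KO embryos at 48 h, against 0.303 and 0.260 FPKM in Con (limma adjusted p = 0.0976), and 0.292 and 0 FPKM in KO zygotes, against 1.44 and 3.99 FPKM in Con zygotes (change -1.63, limma adjusted p = 0.00399). For a transcript of 1 kb, 1 fragment is worth about 0.295 to 0.309 FPKM in KO zygotes, so these Dux values are near the floor. In that zygote comparison 31.6% of all genes passed, 13.1% as lower, and 0 genes passed when the zygotes were fitted alone. The list also held Dnmt1, the maintenance DNA methyltransferase, at 89.6 and 88.7 FPKM in KO and 7.89 and 7.59 FPKM in Con, and Ehmt2, a histone H3 lysine 9 methyltransferase, at 1.04 and 1.01 FPKM in KO and 7.73 and 8.82 FPKM in Con. Tet1, an enzyme that oxidises methylated cytosine, had 0.980 and 0.397 FPKM in KO and 6.72 and 5.39 FPKM in Con. All 3 passed at 48 h, Dnmt1 as higher (limma adjusted p = 3.43e-07), Ehmt2 and Tet1 as lower (limma adjusted p = 7.33e-06 and 9.45e-06).

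Of 19 tested 2-cell genes, 15 were lower and 3 higher in 48 h knockouts, beside 30.6% and 43.2% of all genes. Several of them, such as Tdpoz2, Tdpoz4, Ubtfl1 and Rfpl4b, stayed under 1 FPKM in the Setd2 full-grown oocytes and zygotes. They entered the test only through the 48 h libraries, so the count is a description and is not read against the share. The median log2 change was -1.21 over the 6 Zscan4 members, -2.64 over the 19 genes and 0.43 over all genes. Tdpoz4 had 0.212 and 0.415 FPKM in KO against 29.2 and 26.5 FPKM in Con, and Ubtfl1 0.0792 and 0.542 FPKM in KO against 47.4 and 34.5 FPKM in Con. In the control step from zygote to 48 h 15 of the 19 rose and 4 fell, beside 33.4% and 42.7% of all genes, and the same limit holds. Of 11 tested telomere and meiotic recombination factors, the processes Zscan4 has been linked to, 4 were higher and 3 lower in 48 h knockouts, beside 43.2% and 30.6% of all genes. Acd, a shelterin subunit, had 82.9 and 113 FPKM in KO against 10.6 and 8.71 FPKM in Con, and Terf2ip, another subunit, had 2.61 and 3.72 FPKM in KO against 14.7 and 12.5 FPKM in Con. Of 20 tested genes for other SCAN-domain zinc finger proteins, 10 were higher and 5 lower. Zscan26 had 0.204 and 0.0997 FPKM in KO against 10.5 and 9.75 FPKM in Con, and Zkscan6 had 41.2 and 44.2 FPKM in KO against 2.24 and 2.71 FPKM in Con. These shares of higher and lower genes were near those of all genes, 43.2% and 30.6%. In the control step, where 42.7% of all genes fell, 8 of the 17 regulators rose and 3 fell, 1 telomere factor rose and 6 fell, and 6 of the other SCAN genes rose and 8 fell. No gene of these 4 lists passed in the knockout step, and in full-grown oocytes none was higher and 4 were lower in KO (Dppa4, Dnmt1, Sp110 and Dmc1), beside 4.89% of all genes.

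Across the 12 libraries of full-grown oocytes, zygotes and 48 h embryos the members were highly alike among themselves. Pearson r of log2(FPKM + 1) ran from 0.78 for Zscan4a with Zscan4d to 0.99 for Zscan4c with Zscan4e. Zscan4d had the lowest r with each of the other members, between 0.78 and 0.91. The libraries form 6 groups and members share reads, so these values describe the pattern and carry no p.
The genes outside the family most like the summed Zscan4 level over the same 12 libraries, among 9325 candidates, were Rpl21 (r = 0.93), Egln2, Necap1, Wrb, Tmem11, Stk19, Clp1, Tmem223, Ocm and Mylpf (r = 0.92), and 23 genes had r above 0.9. Clp1 had 6.17 and 30.8 FPKM in knockouts at 48 h and 197 and 213 FPKM in controls, and Tmem223 had 1.42 and 5.54 FPKM in KO and 64.6 and 71.2 FPKM in Con, each with knockout replicate 2 above replicate 1. Without that library r stayed between 0.93 and 0.96 for the 10 genes.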

How the data were processed

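Expression was measured by RNA-seq in 22 libraries. The deposited values are FPKM per gene, computed by the authors; the submitters' processing notes list TopHat2 2.0.11, Cufflinks 2.0.2 and the build mm9, without saying how reads shared by near copies were divided. The 4 tables, scaled separately, were each used as deposited.

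FPKM is not a count, so limma 3.58.1 in R 4.3.3 was run on log2(FPKM + 1), a scale that understates changes of low genes, with 1 mean per group and a variance trend, two-sided, with Benjamini-Hochberg adjustment over all genes that reached 1 FPKM in 2 or more of a table's libraries. The 12 libraries of full-grown oocytes, zygotes and 48 h embryos were fitted together. The fit was tested on simulated data. Depth is approximate: it was read from the smallest FPKM step shown by 3708 genes with 1 transcript.

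All members are named. Of each other list, up to 4 called genes with the smallest adjusted p were eligible for naming. Dux, Dppa2, Zfp352, Tdpoz2, Tdpoz3, Zscan5b, Arg2 and Sp110 were named outside this rule, after their values were seen. The members and lists were chosen with earlier results of these data known. Alternatives were other pseudocounts, filters and scalings, no variance trend, a replicate block, the compared groups alone, and each library left out. Replicate numbers were not used to pair the libraries, except in the replicate block.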

Additional observations from a re-analysis of the deposited data

Results flagged for a closer look

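Zscan4a, Zscan4e and Zscan4f changed less between zygote and 48 h in the knockout than in the control, by a limma contrast of the 2 steps, in which 29.5% of all genes were called lower. Zscan4a and Zscan4e entered the test only through the 48 h libraries, so their calls are not read against this share. The differences, relative to the median of all genes, were -2.54 for Zscan4a, -1.58 for Zscan4e and -2.11 for Zscan4f on the log2 scale (limma adjusted p = 0.00958, 0.0268 and 0.0361).

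The knockout effect also differed between 48 h embryos and full-grown oocytes for 5 members, by the contrast added later, in which 23.7% of all genes were called lower. The 5 include Zscan4a, Zscan4b and Zscan4e, which entered the test only through the 48 h libraries, so this count is a description. The differences were -2.85 for Zscan4a, -1.36 for Zscan4b, -2.94 for Zscan4c, -1.98 for Zscan4e and -3.31 for Zscan4f (limma adjusted p between 0.00438 and 0.0347). The knockout and control embryos at 48 h carry different cell stages in their labels, so both sets of differences are of genotype and stage together. All groups held 1 or 2 libraries, too few to look for a library far from the others.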

How the results depend on the processing

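Of 538 values recomputed under an alternative, 468 kept their direction and their side of the threshold, 45 lost a call, 19 gained one and 6 changed sign. The 48 h count of 5 lower members became 3 with a pseudocount of 0.1 and 3 with a minimum of 5 FPKM, which left 4 members to test, and 2 with the 48 h groups alone; it ran from 2 to 6 when 1 library was left out. The cause was not tested. The difference between the steps, lower for 3 members, held for 1 without a filter, 1 with the compared groups alone, 6 with median-ratio scaling and 6 with quantile scaling, and for 1 to 6 when 1 library was left out. The 48 h minus oocyte difference, lower for 5, held for 3 with a pseudocount of 0.1, 3 with a minimum of 5 FPKM and 2 to 6 when 1 library was left out. The knockout step gave 0 to 1 higher members when 1 library was left out, the 1 being Zscan4a without knockout 48 h replicate 1. In the control step all 6 members rose in each alternative run, except that the minimum of 5 FPKM left 4 to test, all of which rose.

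Sign changes fell on values that were never called. In zygotes Zscan4b was -0.012 with quantile scaling. With 1 library left out, the zygote values ran from -0.056 to 0.31 for Zscan4a, -0.018 to 0.13 for Zscan4b, -0.037 to 0.47 for Zscan4c and -0.42 to 0.11 for Zscan4f, and the knockout step of Zscan4d from -0.23 (without knockout 48 h replicate 2) to 1.57. With the replicate number as a block the 48 h count stayed at 5 and the step difference at 3 members (Zscan4a, Zscan4b and Zscan4e). Deviations of same-numbered libraries correlated at 0.186 (full-grown oocytes), 0.0742 (zygotes) and 0.00244 (48 h). These low values do not settle whether libraries were handled in pairs.

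Over all genes, the 844 oocyte calls became 489 with a pseudocount of 0.1 and 43 to 145 with 1 library left out; the 3850 zygote calls became 0 with the compared groups alone, and 2256 to 3935 with 1 library left out; the 25 calls of the knockout step became 11 to 172 with 1 library left out and 0 with the compared groups alone. Groups of 2 libraries and shallow zygote libraries limit what could be seen for Zscan4a, Zscan4b and Zscan4e.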
